A study of Caenorhabditis elegans with 2 samples.

Results

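A set of 10 regulators of the Caenorhabditis elegans epidermis was examined for binding of CEH-18 in late embryos. The genes were chosen by name, because ceh-18 acts in epidermal differentiation. No peak value entered the rule, but earlier results of these data were known when it was made. The genes are 10 of the 19973 protein-coding genes of the nuclear chromosomes in the Ensembl annotation. They comprise tlp-1, rnt-1, bro-1, elt-1, elt-3, lin-26, egl-18, elt-6, grh-1 and blmp-1. The binding data came from chromatin immunoprecipitation and sequencing of whole hermaphrodite embryos, labelled late embryonic and 3 h after synchronisation by bleaching. The strain, OP533, has the genotype unc-119(tm4063) III; wgIs533, and its transgene expresses CEH-18 with a C-terminal tag of green fluorescent protein (GFP) and FLAG. There were 2 biological replicates of 1 group and no other condition, and an antibody to GFP was used, although the antibody field reads ceh-18. Gene expression was not measured here, so the epidermal role of the genes rests on background knowledge, and a peak in whole embryos cannot be assigned to epidermal or other cells.

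CEH-18 is a POU homeodomain transcription factor known from the gonadal sheath, the oocyte's meiotic arrest and the epidermis. The worm epidermis consists of large syncytia and of lateral seam cells, which divide in a stem-cell-like manner. GATA factors set it up: ELT-1 specifies epidermal fate in the embryo, ELT-3 acts in differentiating epidermis, and EGL-18 and ELT-6 maintain seam cells downstream of Wnt signalling. LIN-26 is a zinc finger protein that keeps cells epidermal, RNT-1 is the worm's Runx factor and BRO-1 its CBF-beta partner in seam cell proliferation, and TLP-1 is a zinc finger protein needed in the tail. GRH-1 is the Grainyhead protein of the worm, a family known for cuticle and epidermal barrier genes, and BLMP-1 is the Blimp-1 homologue, which acts in the timing of epidermal development.

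The deposited peak lists on the ce11 build gave, for each peak, a summit, a signal (the height from the authors' peak caller, whose scale is not stated) and a -log10 q. The pooled list, made from both replicates, held 28466 peaks. By the deposited notes, the pooled and replicate lists hold background as well as peaks. In the pooled list, 6482 entries had a q below 0.05, so an entry is not by itself evidence of binding. The thresholded list, which the authors kept after an irreproducible discovery rate (IDR) step, held 2575, and these were the pooled peaks with a signal of at least 114.2. Replicate 1 had 30000 peaks and replicate 2 had 21337. The depth of the libraries is unknown from these lists, so no interval can be given for a signal, and signals were ranked only within a list. For each gene, summits were collected over a territory, which runs from the edge of the nearest protein-coding gene upstream to the end of the gene body. The territory of ceh-18 itself (WBGene00000441, X:3843367-3857797, minus strand), 26.04 kb long, held 0 summits in each of these 4 lists. Over all genes' territories the pooled list had 2.98 summits per 10 kb and the thresholded list 0.305. Why the ceh-18 territory held none was not tested, and the lack of an entry does not show a lack of binding.

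The thresholded list held 4 summits in the territories of these 10 genes, at tlp-1, at rnt-1 (2 summits) and at grh-1. The other 7 genes had none, and all 4 epidermal GATA factor genes were among them. The strongest GATA summit, at the start of elt-6, had a signal of 112.2 and ranked 2641 in the pooled list, 66 places below the last thresholded peak. The 3 genes with a thresholded summit compare with 12.9% of all protein-coding genes. In a promoter window of 1000 bp before and 200 bp after the 5′ end, tlp-1 and rnt-1 had a thresholded summit, which is 2 of 10 genes, against 7.20% of all genes. These are counts of genes chosen with earlier results known, so no test was made of them.

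**Figure D1:**
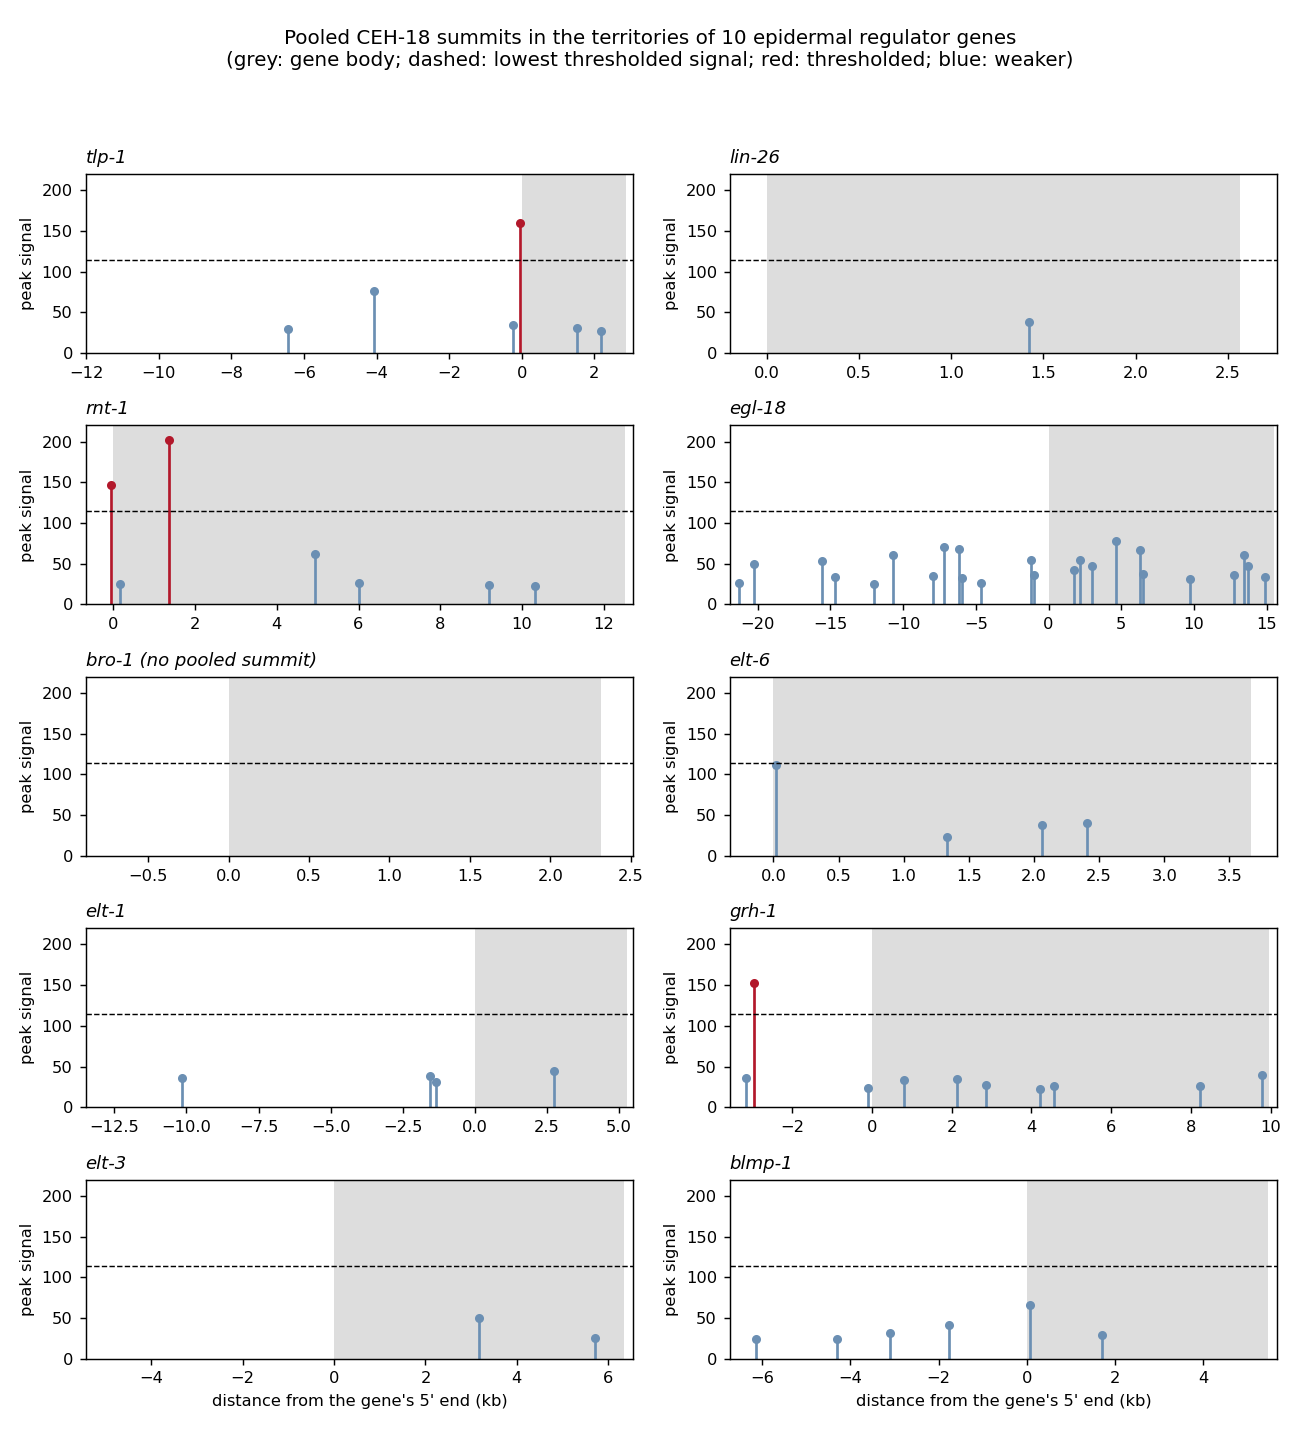
Pooled CEH-18 summits over each of the 10 genes, with the distance from the gene's 5′ end in kb on the horizontal axis and the signal on the vertical axis. Red stems are the 4 thresholded summits, at tlp-1, rnt-1 and grh-1, blue stems are the 60 weaker ones, grey is the gene body, and the dashed line is the lowest thresholded signal of 114.2; horizontal scales differ between genes.

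The 4 thresholded peaks were of ordinary strength for their list. The median thresholded signal was 171.5, and only the intronic rnt-1 peak was above it. Their density, 0.308 per 10 kb of territory, was close to the 0.305 over all genes' territories. The pooled list had 64 summits in the 129.8 kb of these territories, or 4.93 per 10 kb, against 2.98 over all genes' territories. Without the thresholded ones, 60 summits gave 4.62 per 10 kb, against 2.68. The difference was uneven between the replicates' own lists, with 5.55 against 3.12 per 10 kb in replicate 1 and 2.70 against 2.27 in replicate 2. Of the 64, 28 lay upstream of the 5′ end, all in intergenic sequence, and 36 in the gene body, with 27 in introns, 8 in coding exons and 1 in a 3′ UTR. Within 200 bp of a non-coding RNA gene other than piRNAs lay 9 of the 64, at rnt-1, egl-18 and blmp-1, and none of the thresholded ones. The shares of all pooled summits in these places are not given here, so the counts cannot show whether such positions are unusual.

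A single pooled summit is a weak criterion, since 53.9% of all genes had one in their territory. Of these genes, 9 of 10 did, and bro-1 did not. In the promoter window, 6 of 10 genes had a pooled summit, against 35.1% of all genes and 42.1% of the 1916 genes with long territories described next. With a deposited q below 0.05, there were 12 summits at 6 genes (tlp-1, rnt-1, egl-18, elt-6, grh-1 and blmp-1), against 25.3% of all genes. Territory length varied among these genes, from 2.567 kb at lin-26 to 37.2 kb at egl-18, with a median of 12.5 kb against 3.54 kb for all genes. A group of 1916 genes with a territory of at least that median was chosen after seeing the values. Of that group, 33.4% had a thresholded summit in the territory, 61.0% a summit with q below 0.05 and 88.6% any pooled summit. The 5 epidermal genes in the same length range (tlp-1, rnt-1, elt-1, egl-18 and grh-1) had them in 3, 4 and 5 cases, and the 5 shorter ones in 0, 2 and 4 cases. In the promoter window, 6.84% of the 1916 genes had a thresholded summit, against 2 of the 5 epidermal genes of that length and 0 of the 5 shorter ones.

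**Figure D2:**
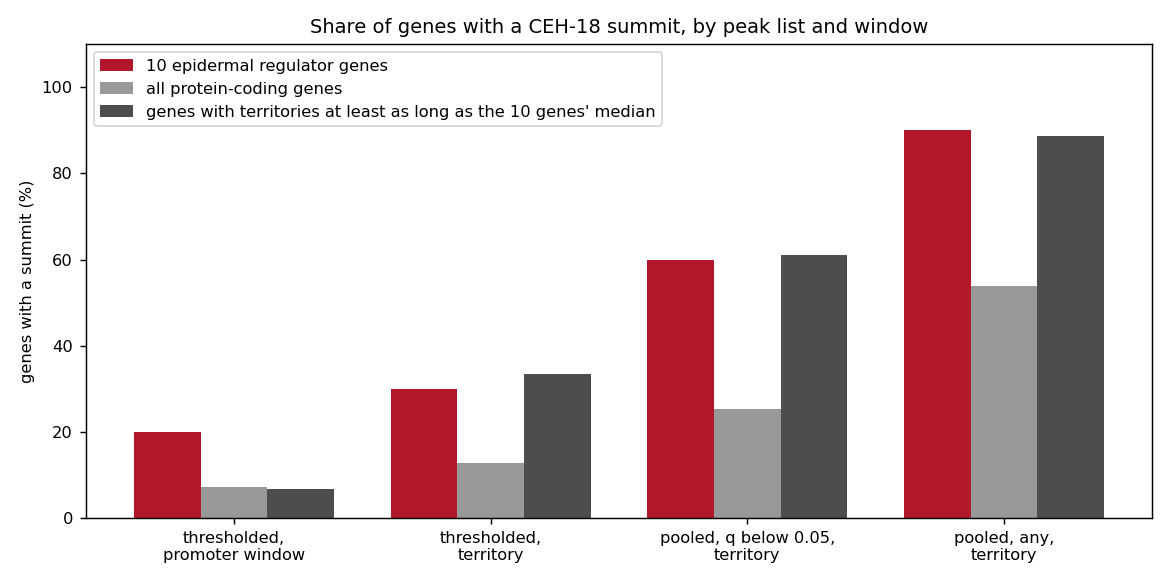
Percentage of genes with at least 1 CEH-18 summit (vertical axis) for 4 combinations of peak list and window (horizontal axis). Red bars are the 10 epidermal genes, light grey bars all 19973 protein-coding genes and dark grey bars the 1916 genes with long territories; in territories the red bars stand for 3, 6 and 9 of 10 genes, of which only 5 have territories as long as those behind the dark grey bars (33.4%, 61.0% and 88.6%).

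The gene tlp-1 (WBGene00006580, IV:13701208-13704082, minus strand) had a thresholded summit almost at its 5′ end. The summit lay 33 bp upstream, in the peak IV:13703873-13704356, with a signal of 159.7 and rank 1498. Replicate 1 had a summit at the same base with a signal of 85.8 (rank 1315), and replicate 2 one 39 bp away with a signal of 73.2 (rank 1811). Thus both replicates placed this peak among their strongest 2575. The sequence from 75 bp before the summit to the last base before the 5′ end is shown because it holds the peak's centre, with the word GAGAGA, on either strand, in capitals (RefSeq sequence of WBcel235, which is the ce11 build, minus strand of IV:13704083-13704190).
tlp-1, 108 bases: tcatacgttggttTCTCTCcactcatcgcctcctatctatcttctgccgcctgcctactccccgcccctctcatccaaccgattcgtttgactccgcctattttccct
The summit is base 76 of this run, and the run has a GC content of 53.7%. The whole window, 75 bp to either side of the summit, runs on past the 5′ end and held 3 GAGAGA matches and 1 GC box (GGGCGG).

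The upstream sequence of tlp-1 is long, at 11823 bp, and held 3 more pooled summits. The strongest lay 4060 bp upstream, with a signal of 76.1, rank 4658 and a -log10 q of 2.32. It had counterparts in replicate 1 (35.3) and replicate 2 (45.2), so it was seen in both but ranked below the thresholded set. The summits 6435 bp and 244 bp upstream had signals of 29.2 and 34.7. In the gene body, signals were 30.8 at 1531 bp, in an intron, and 27.0 at 2203 bp, in a coding exon. Each of these 4 weaker summits was matched in at most 1 replicate within 100 bp. In the replicates' own lists, tlp-1 had 5 summits (20.9 to 85.8) in replicate 1 and 3 (20.8 to 73.2) in replicate 2.

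The seam cell gene rnt-1 (WBGene00004393, I:5776093-5788611, plus strand) had the strongest peak of the 10 genes and was the one gene with 2 thresholded summits. The stronger lay 1368 bp downstream of the 5′ end, in an intron, with a signal of 201.5 and rank 943. Replicate signals there were 96.0 (rank 1064) and 99.2 (rank 1013). The other lay 56 bp upstream of the 5′ end, in the 482 bp between rnt-1 and the histone H1-like gene hil-5, with a signal of 146.5 and rank 1734. Its replicate signals were 65.4 (rank 2135) and 74.3 (rank 1766). The intronic peak was therefore the higher of the pair in the pooled list and in each replicate.

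Weaker rnt-1 summits continued along its 12.5 kb body. One at 4938 bp, within 200 bp of the non-coding RNA gene B0414.11, had a signal of 61.7 and a rank of 6482, the last rank with q below 0.05. Replicate 1 listed it with a signal of 39.9, and replicate 2 had no summit within 100 bp, its nearest being one of signal 20.8 at 4833 bp. The summits at 165, 6021, 9185 and 10308 bp had signals of 25.7, 26.7, 23.9 and 23.1, near the lowest of the pooled list (23.03). The gene has a shorter transcript that starts 7718 bp downstream of the first, and the summit nearest to that start was the one at 9185 bp, 1467 bp past it. Replicate 1 listed 6 summits at rnt-1 (14.7 to 96.0) and replicate 2 listed 4 (17.5 to 99.2).

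The partner gene bro-1 (WBGene00000272, I:5186926-5189240, plus strand) gave the opposite picture. Its territory is short, 3.00 kb with 689 bp upstream, and neither the thresholded, the pooled nor the replicate 1 list had a summit in it. Replicate 2 alone had 1, 772 bp downstream of the 5′ end, with a signal of 19.4 and rank 16228. The genes of the 2 subunits of the Runx complex therefore differed in these lists, with 2 thresholded summits in the 13.0 kb territory of rnt-1 and none at bro-1. Lacking a summit is common, since 12.9% of all genes had a thresholded one in the territory and 53.9% a pooled one.

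The Grainyhead gene grh-1 (WBGene00001707, I:1258201-1268155, minus strand) had a thresholded summit far from its 5′ end. It lay 2952 bp upstream, with a signal of 152.4 and rank 1631, and replicate signals of 77.8 (rank 1583) and 76.8 (rank 1657). The neighbour Y48G8AR.8, on the other strand, starts 409 bp from this summit, so the peak is nearer to that gene than to grh-1. At the 5′ end of grh-1 itself the pooled list had only a summit of signal 24.1, 102 bp upstream, with no counterpart in either replicate. A weaker summit stood beside the strong one, 3153 bp upstream (36.4), and 7 lay in the gene body, with signals from 23.1 to 39.7. A shorter grh-1 transcript starts 4150 bp into the gene, and the summits beside it, 71 and 402 bp past that start, were among the weakest of the gene, the nearer with a signal of 23.1. The strongest of these was in the 3′ UTR, 9785 bp downstream of the 5′ end. None of the body summits was matched in replicate 2, whose list had 1 summit in the territory, while replicate 1 had 11 (12.9 to 77.8).

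The Blimp-1 homologue blmp-1 (WBGene00003847, I:10409302-10414773, plus strand) had its strongest summit at its start, below the threshold. It lay 72 bp downstream of the 5′ end, in a coding exon, with a signal of 66.6, rank 5747 and a -log10 q of 1.59. Both replicates had a summit within 100 bp, with signals of 29.6 (rank 8292) and 29.3 (rank 7662). Replicate 1 had a further summit of signal 31.4 on the other side of the 5′ end, 122 bp upstream. Upstream, summits at 1765, 3106, 4302 and 6130 bp had signals of 41.6, 31.4, 24.9 and 23.9, falling with distance from the gene. Those at 1765 and 3106 bp lay within 200 bp of the non-coding RNA genes F25D7.6 and F25D7.8 in turn. The one at 1765 bp was matched in both replicates, the other 3 in replicate 1 alone. A summit 1696 bp into the gene had a signal of 29.1.

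The GATA factor genes egl-18 and elt-6 lie in tandem on chromosome IV, and their summits were many and below the threshold. The gene egl-18 (WBGene00001186, IV:1902322-1917840, plus strand) ends 136 bp before elt-6 (WBGene00001253, IV:1917977-1921643, plus strand). The territory of egl-18 was the longest of the 10, at 37.2 kb with 21725 bp upstream, and held 24 pooled summits, or 6.44 per 10 kb. In elt-6, 4 summits in 3.803 kb gave 10.5 per 10 kb. Together these neighbours had 28 of the 64 pooled summits and no thresholded one.

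The elt-6 summit lay 23 bp downstream of the 5′ end, in the first coding exon, over IV:1917758-1918241, a peak that also covers the end of egl-18. Its signal of 112.2 stood just under the lowest thresholded signal of 114.2, and its -log10 q was 3.02. In replicate 1 the nearest summit, 61 bp upstream of the 5′ end, had a signal of 55.4 (rank 2801), and a second, 140 bp downstream, had 33.6. In replicate 2 the summit was 21 bp downstream with a signal of 53.4 (rank 2981). Each replicate thus also ranked the peak just outside its strongest 2575. The other elt-6 summits, at 1330, 2064 and 2405 bp, had signals of 23.3, 37.4 and 41.0, each matched in 1 replicate.

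At egl-18, signals ranged from 24.9 to 78.4, and no summit stood out as the elt-6 one did. The 4 with q below 0.05 were 4660 bp downstream of the 5′ end (78.4, rank 4467), 7204 bp upstream (70.6, rank 5263), 6136 bp upstream (67.9, rank 5566) and 6255 bp downstream (66.8, rank 5707). The summits at 4660 and 6255 bp lay in an intron, within 200 bp of the non-coding RNA genes F55A8.3 and F55A8.4 in turn. They were matched in both replicates, with signals of 39.8 and 40.6 for the first and 37.0 and 25.6 for the second. The summit 6136 bp upstream was strong in replicate 2 (49.1, rank 3361), and replicate 1 had none within 100 bp. For the summit 7204 bp upstream, replicate 2 had a counterpart (31.9), and replicate 1 had a summit of signal 43.2 at 7094 bp upstream, just past the 100 bp limit.

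The other egl-18 summits were spread along the locus. Upstream, those at 20272, 15605 and 10683 bp had signals of 49.1, 53.4 and 60.4 and were matched in both replicates. Those at 21294, 14695, 11996, 7948, 5919 and 4640 bp were weaker, from 24.9 to 34.7, and only the one at 5919 bp (33.0) was in both. Nearer the 5′ end, summits 1220 and 979 bp upstream had signals of 54.9 and 36.7 and were in replicate 1 only. In the first part of the body, signals were 42.8 at 1775 bp, 54.2 at 2130 bp, 46.8 at 3010 bp and 37.9 at 6505 bp, and the one at 2130 bp was in both replicates, with 13.7 in replicate 1 and 37.3 in replicate 2. A shorter egl-18 transcript starts 11132 bp into the gene, and around it lay summits at 9724 bp (30.8), 12734 bp (35.8), 13444 bp (61.0), 13739 bp (47.6) and 14894 bp (33.7). The 13444 bp summit was listed in replicate 1 (34.6) and the 13739 bp summit in replicate 2 (42.1), so neither was in both. Replicate 1 listed 23 summits in the territory and replicate 2 listed 11.

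**Figure D3:**
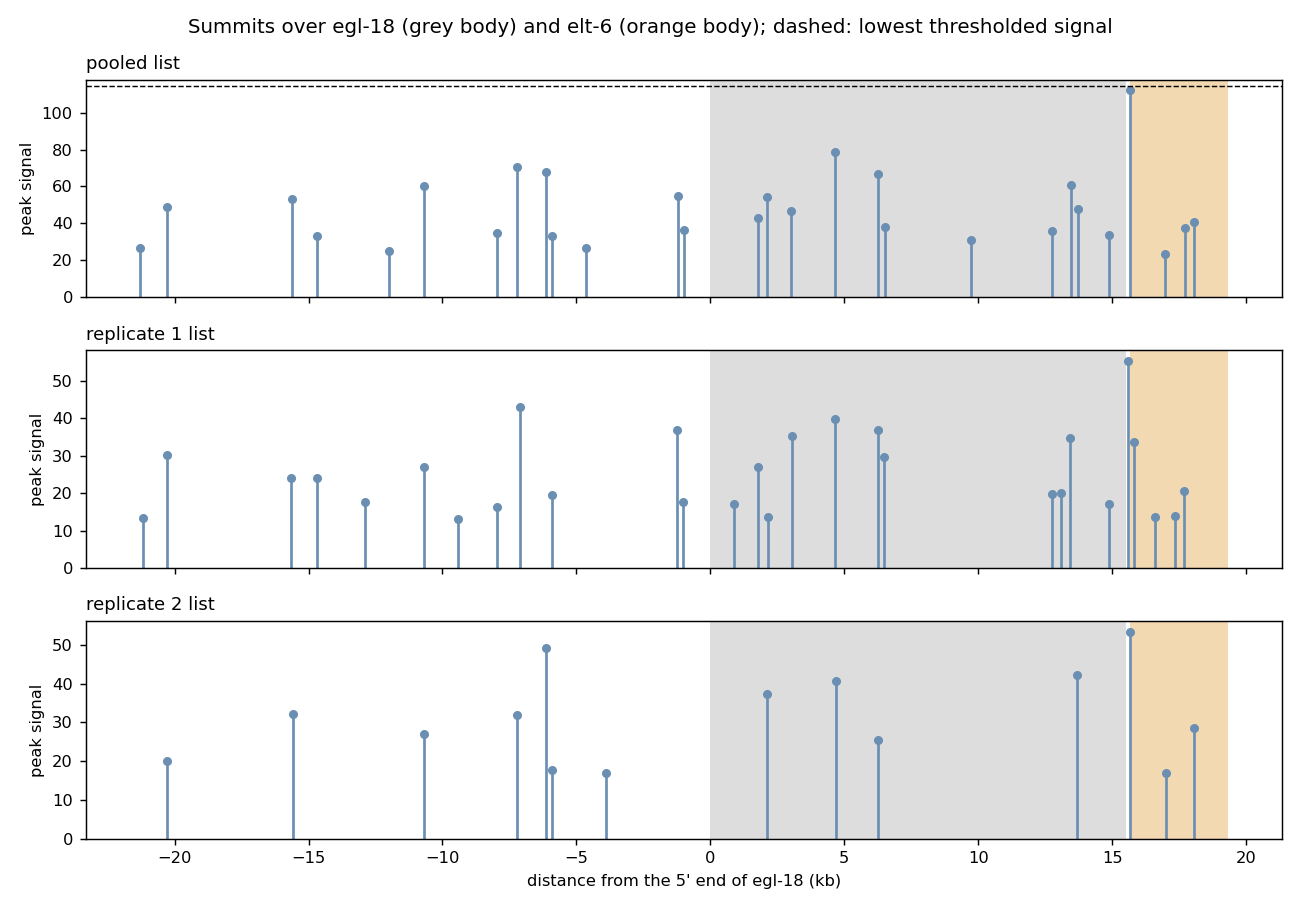
Summits of the pooled list (top) and of each replicate's list (middle and bottom) over egl-18 and elt-6, with the distance from the egl-18 5′ end in kb on the horizontal axis and the list's own signal on the vertical axis. The highest stem in each panel is at the start of elt-6 (112.2, 55.4 and 53.4), and the egl-18 summits are 24, 23 and 11 in number. In the top panel the stems of both genes stay below the dashed line of the lowest thresholded signal.

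The sequences around the elt-6 summit and the strongest pair of egl-18 summits are printed because they are the strongest of this tandem locus. In the elt-6 run, from 52 bp upstream to 98 bp into the coding sequence (IV:1917925-1918075), capitals mark the E-box CANNTG. In the egl-18 runs (IV:1906907-1907057, in the intron, and IV:1895043-1895193, upstream), capitals mark GAGAGA on either strand. All are RefSeq WBcel235 sequence, plus strand, with the summit at base 76.
elt-6, summit 23 bp downstream: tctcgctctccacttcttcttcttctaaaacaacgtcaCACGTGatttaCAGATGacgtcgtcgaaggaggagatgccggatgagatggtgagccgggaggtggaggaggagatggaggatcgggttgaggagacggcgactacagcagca
egl-18, summit 4660 bp downstream: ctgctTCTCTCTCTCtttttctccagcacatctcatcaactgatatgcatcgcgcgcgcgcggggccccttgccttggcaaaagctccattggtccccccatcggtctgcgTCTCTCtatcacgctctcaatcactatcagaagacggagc
egl-18, summit 7204 bp upstream: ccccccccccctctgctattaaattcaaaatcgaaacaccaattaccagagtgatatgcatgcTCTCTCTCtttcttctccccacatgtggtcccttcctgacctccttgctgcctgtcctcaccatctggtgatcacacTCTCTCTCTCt
The elt-6 window held 2 E-boxes and no GAGAGA match. The egl-18 windows held 4 and 5 GAGAGA matches, some overlapping, and also 1 and 3 E-boxes, which are not capitalised, so E-boxes do not set the elt-6 window apart. The GC content was 54.3%, 55.6% and 50.3%.

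The embryonic specifier elt-1 (WBGene00001249, IV:9614995-9620280, plus strand) had only weak summits, 4 in a territory of 18.6 kb with 13299 bp upstream. Signals were 44.5 in an intron 2727 bp downstream of the 5′ end, 38.5 and 31.0 at 1566 and 1352 bp upstream, and 36.4 at 10171 bp upstream. All 4 had a counterpart within 100 bp in both replicates, the only gene with more than 1 summit for which this held. Their replicate signals were low in both, at most 21.2 in replicate 1 and at most 24.8 in replicate 2, and the highest -log10 q was 0.500. The strongest elt-1 summit of replicate 1, with a signal of 25.8 at 734 bp, was not in the pooled list. Agreement between replicates at elt-1 was therefore among peaks near the middle of the pooled list, whose median signal was 38.2.

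The gene elt-3 (WBGene00001251, X:13934874-13941216, plus strand) had 2 pooled summits, both in its body and none in the 5239 bp upstream. The stronger, in an intron 3178 bp downstream of the 5′ end, had a signal of 49.7 (rank 9255) and replicate signals of 23.4 and 25.9. It lay 691 bp upstream of the start of a shorter elt-3 transcript. The other, in a coding exon at 5701 bp, had a signal of 25.1 and was matched in replicate 2 only (19.9).

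The gene lin-26 (WBGene00003012, II:7682198-7684764, plus strand) has no upstream sequence of its own in this annotation, since its 5′ end lies inside the related zinc finger gene lir-1. Its body held 1 pooled summit, in an intron 1424 bp downstream, with a signal of 38.1, rank 14353 and a counterpart in replicate 1 (26.9) but none in replicate 2. Stronger peaks lay in the genes before it on the same strand. In lir-1, 5563 bp upstream of lin-26, the thresholded list had a summit of signal 121.9 and rank 2327, with replicate signals of 76.6 and 51.4. In lir-2, 12541 bp upstream of lin-26, a pooled summit had a signal of 112.8 and rank 2620, just below the threshold. The stretch between lay mostly lower, with signals of 27.0 to 64.9 for the other pooled summits inside lir-1. These neighbouring genes are outside the lin-26 territory and are not counted in its totals.

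**Figure D4:**
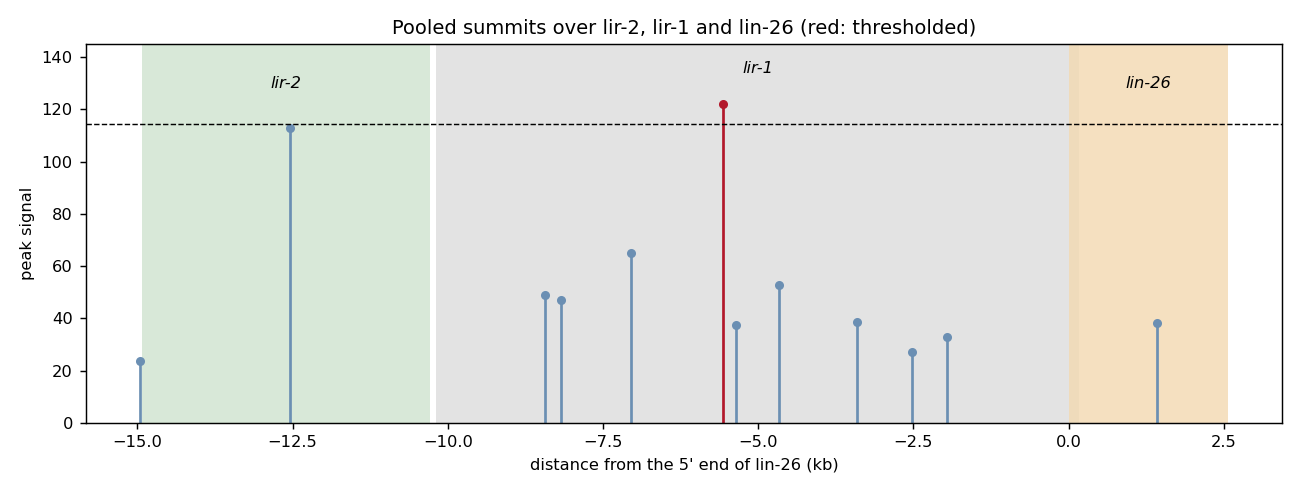
Pooled summits over lir-2 (green), lir-1 (grey) and lin-26 (orange), with the distance from the lin-26 5′ end in kb on the horizontal axis and the signal on the vertical axis. The thresholded summit (red, 121.9) is in lir-1, 5563 bp upstream of lin-26, the next highest (112.8) is in lir-2 under the dashed line of 114.2, and lin-26 itself has 1 summit of 38.1.

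The replicates agreed most at the strongest peaks of these genes. All 4 thresholded summits had a counterpart within 100 bp in both replicates, so 3 of 10 genes had a replicate-supported thresholded summit, against 12.7% of all genes. Of the 8 weaker pooled summits with q below 0.05, 5 were matched in both. Of the 52 summits with q of 0.05 or more, 11 were. Over all 64, 20 were matched in both replicates, 34 in 1 and 10 in neither. The same shares over all pooled summits are not given here, so these counts cannot show whether matching at these genes was unusual. The pooled list contains both replicates, and the thresholded list was kept by the IDR step, which concerns reproducibility. None of these counts is therefore independent evidence of agreement. Over all genes, asking for replicate support changed the share with a thresholded summit only from 12.9% to 12.7%. Replicate 1 listed 72 summits in the 10 territories and replicate 2 listed 35, and the part that the lengths of the lists play in this was not tested.

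**Figure D5:**
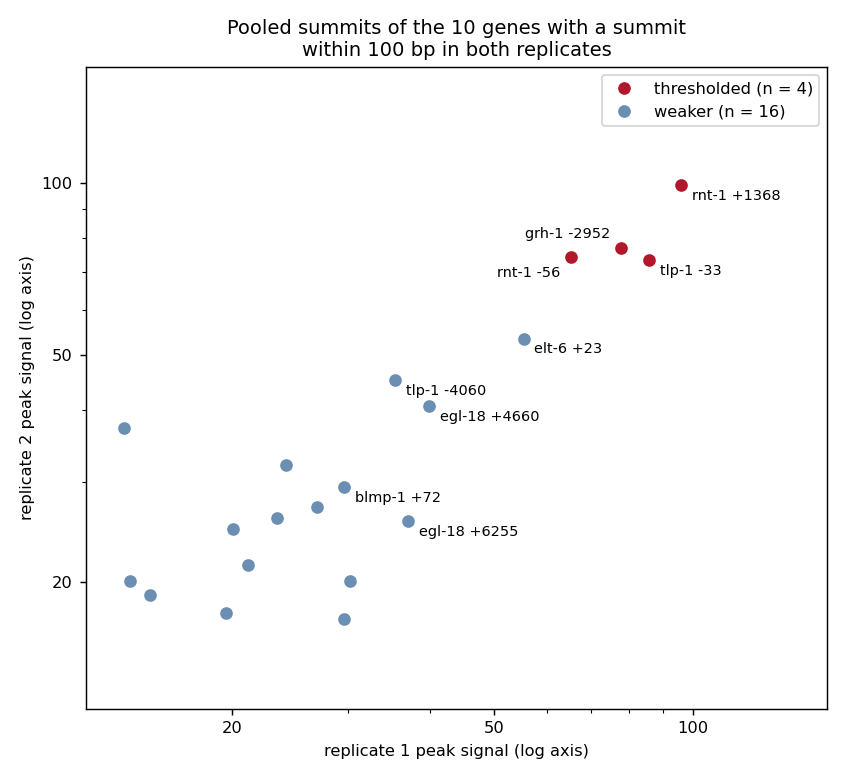
Signal in replicate 1 (horizontal, log axis) against replicate 2 (vertical, log axis) for the 20 pooled summits of the 10 genes that had a summit within 100 bp in both replicates. The 4 thresholded summits (red) lie at 65.4 to 96.0 in replicate 1 and 73.2 to 99.2 in replicate 2, above the elt-6 summit (55.4 and 53.4) and the other 15 weaker ones (blue).

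Of the 4 thresholded windows, 3 held the word GAGAGA within 75 bp of the summit, namely those at tlp-1, grh-1 and the 5′ end of rnt-1. The word was in 45.2% of all 2575 thresholded windows and in 7.30% of flanking windows of the same length 500 bp away. The GC content was 47.6% in the thresholded windows and 35.1% in the flanks. The intronic rnt-1 window, the strongest of the 4, had no GAGAGA match and 2 E-boxes. The GC box GGGCGG was in the tlp-1 and grh-1 windows, and the E-box CANNTG in the grh-1 and intronic rnt-1 windows, against 10.4% and 51.7% of all thresholded windows. None of the 4 held the GATA word GATAA, the octamer ATGCAAAT of POU proteins or its part ATGCA, or the homeodomain word TAATTA. Their shares among all thresholded windows were 19.5%, 0.854%, 20.8% and 1.51%. Nor did any hold AACNGGTT, TGTGGT or TTTCANTTT, words that resemble sites of Grainyhead, Runx and Blimp-1 proteins, which 0.660%, 9.09% and 4.70% of thresholded windows held. All words were read on both strands.

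Among the 60 weaker windows of these genes, GAGAGA was in 16 (26.7%), against 16.2% of the 25891 weaker pooled windows genome-wide. Most of these 16 were at egl-18, which had 24 of the 60 windows, so this share is largely that of 1 locus. GATAA was in 22 (36.7%, against 24.4%), the E-box in 29 (48.3%, against 47.6%) and ATGCA in 14 (23.3%, against 21.4%). The Grainyhead-like word AACNGGTT was in 4 (6.67%, against 1.35%), the Runx word TGTGGT in 5 (8.33%, against 6.66%) and the Blimp-1 word TTTCANTTT in 2 (3.33%, against 6.07%). GGGCGG was in 5 (8.33%, against 5.87%), TAATTA in 3 (5.00%, against 4.93%) and the octamer in none, against 1.41%. The mean GC content was 43.6%, against 42.5%. Windows of 1 gene can overlap, so these are descriptions without a test, and a matching word is not a binding site.

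Other genes of the epidermis and its pathways had no thresholded summit in the promoter window. These were 14 further epidermal regulators, 7 other GATA factor genes, 7 genes of the Wnt asymmetry pathway of seam cells and 10 epidermal effector genes, such as those of junctions and fusion. In their territories, 2 of 14, 0 of 7, 2 of 7 and 4 of 10 had one, against the 12.9% of all genes and the 33.4% of those with long territories. The genes are named here after their values were seen. They were dre-1, whose F-box protein targets BLMP-1 for degradation (signal 164.6, in its body), lir-1, the kinase gene lit-1 (171.6 and 138.2, in its body), the axin gene pry-1 (168.0, 1926 bp upstream), and the effector genes dlg-1 (221.6, 4325 bp upstream), let-413 (122.4, 1204 bp upstream), ajm-1 (131.2) and vab-10 (191.5), both in the body. The summits at let-413, dlg-1 and ajm-1 lay within 200 bp of non-coding RNA genes, and whether the peaks belong to those was not tested. With q below 0.05, pooled summits were in the territories of 9 of 14, 0 of 7, 4 of 7 and 5 of 10, against 25.3% of all genes and 61.0% of the 1916 genes with long territories. The median territories of these lists were 9.385, 4.503, 9.77 and 10.5 kb. The other GATA factor genes, which act mainly in the endoderm, had any pooled summit in 1 of 7 territories and the epidermal GATA genes in 4 of 4, against 53.9% of all genes and 88.6% of those with long territories. The median territory was 4.503 kb for the former and 15.1 kb for the latter, and the part that length plays in these counts was not tested.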

How the data were processed

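The members and the gene lists were chosen with earlier results of these data known. Per the deposited notes, the authors called peaks and background on each replicate's ce11 alignment and on both pooled, with a control alignment, and thresholded the result by IDR. Aligner, caller and IDR cutoff: not given in the sources used here. Each signal and each -log10 q is as deposited by the authors. Peaks were ranked by signal within a list, since 1912 thresholded peaks shared the highest -log10 q.

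Genes were those of Ensembl release 115 on WBcel235, the same assembly as ce11, and no peak passed a chromosome end. The bodies of protein-coding genes bounded territories. A gene whose 5′ end lies inside another had its body alone. Summits were matched between lists within 100 bp. Of the listed genes, bus-8 had no row under that exact symbol and was left out. Lists on ce10 were not used here. No test was made: the design holds 1 group. All 10 genes were named by rule, as were other listed genes with a thresholded summit in the promoter window, of which there were none. The labels call the replicates biological and say no more of their cultures. Territories, distances and words were checked on simulated data. Python 3.11.15, numpy 2.4.6, pandas 2.3.3 and matplotlib 3.10.9 were used.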

Additional observations from a re-analysis of the deposited data

How the results depend on the processing

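Of 22 alternatives, 17 left the counts within 1.5 times. With only the 1287 thresholded peaks of highest signal, 0 genes had a summit in the promoter window, 1 gene (rnt-1) had one in the territory and 1 summit was left in all. With all pooled peaks 9 genes had a summit in the territory, and with the pooled peaks of q below 0.05, an alternative chosen after seeing the data, 6 had. These follow from the number of peaks kept. Using the strongest 2575 peaks of replicate 1 or of replicate 2 alone gave 2 genes by promoter window, 3 by territory and 4 summits in each case, as with both. The genes were tlp-1 and rnt-1, and with the territory also grh-1. Other promoter windows, any transcript's 5′ end, an upstream neighbour of any biotype, merged summits and other ways to match replicates gave the same counts. Counting each word once per window however often it occurred, the 4 thresholded summits had 7 words within 75 bp, 5 within 50 bp and 9 within 100 bp. No paired analysis was possible because the design has 1 group. Depth is unknown, so a gene without a listed summit cannot be called unbound.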
